A study of Mus musculus with 7 samples.

Results

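The genes described here carry out DNA replication and the supply and packaging steps that go with S phase, the part of the cell cycle in which the genome is copied. They were chosen as 43 listed gene symbols, and a probe set (a group of short oligonucleotides that reads 1 transcript) counted as theirs where the array annotation paired it with that symbol alone. Gins2 and Chaf1a had no such probe set, which left 41 genes with 74 probe sets among 12393 genes in all. Where a gene had several, the brightest on average was used (called the kept probe set), and 39 of the 41 passed the filter on low signals. Orc1, with a highest signal of 130, and Tyms, with a highest signal of 78.6 on its kept probe set, did not.

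The samples were total RNA from mouse fetal liver, each on 1 of 7 single-colour arrays: liver endothelial progenitors (LEP) positive for the surface antigen Sca1 (Sca1+, n = 2), LEP negative for it (Sca1-, n = 3), LEP with no Sca1 fraction named (called unsorted here, n = 1) and a feeder cell layer from fetal liver (n = 1). The labels give no genotype, strain, gestational age, treatment or culture time for any group, nor whether replicates were separate animals or cultures; the spread that the p-values rest on may therefore be technical. Signals, listed in replicate order, are given after scaling each array to a trimmed mean of 500. Differences are of log2 signal with values under 64 set to 64. The feeder array was deposited in a table of its own under another platform, so it is described without a test.

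A cell copies its DNA in ordered steps. In G1 the origin recognition complex, with Cdc6 and Cdt1, loads the MCM helicase onto origins, which is called licensing; in S phase Cdc45, the GINS complex and Mcm10 switch the helicase on. Polymerases then copy the strands, held by the sliding clamp Pcna, while nucleotide enzymes keep precursors available and chromatin factors restore histones and DNA methylation behind the fork. Many of these genes are switched on together at the end of G1 by E2F transcription factors, and in the fetal liver they are known to be active in expanding blood cell precursors.

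To show what the genes share in sequence, their RefSeq promoters (GRCm38.p6, 250 bases before to 50 after each start) were searched on both strands for 4 forms of the E2F word, TTTGGCGC, TTTCCCGC, TTTCGCGC and TTTGCCGC, which can overlap one another. A promoter was found for 37 of the 43 listed genes. Of these, 14 (37.8%) held a match, against 575 of 17491 protein-coding genes (3.29%). Counted by promoter, 14 of their 46 (30.4%) held a match, against 744 of all 32851 promoters (2.26%). The 14 were Mcm3, Mcm5, Mcm6, Mcm7, Orc1, Cdc6, Cdt1, Pola1, Pold1, Pole2, Rfc3, Lig1, Dnmt1 and Uhrf1, so licensing genes made up 7 of them and none of the nucleotide supply genes was among them. The CCAAT word was in 24 of the 37 (64.9%) and in 42.3% of protein-coding genes. The CHR words TTTGAA and TTCGAA, which are known from promoters of mitotic genes, were in 8 of the 37 (21.6%) and in 20.2% of protein-coding genes. A match is a run of letters and does not show that a factor binds there. The following stretches of 120 bases, each ending before the start, are shown because they carry the matches of genes from licensing and polymerase steps (capitals mark the E2F words) and, for contrast, because Rrm2 and Cdc45 had the smallest p between the fractions and held no match. They lie at chr1:128359725-128359844 (minus strand) for Mcm6, chr11:98907921-98908040 (plus) for Cdc6, chr4:108579334-108579453 (plus) for Orc1, chrX:93632266-93632385 (minus) for Pola1, chr12:24708134-24708253 (plus) for Rrm2 and chr16:18811973-18812092 (minus) for Cdc45, and are written 5′ to 3′ along the gene's strand.
Mcm6: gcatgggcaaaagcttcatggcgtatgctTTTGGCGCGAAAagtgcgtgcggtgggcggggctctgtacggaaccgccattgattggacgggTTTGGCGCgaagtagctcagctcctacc
Cdc6: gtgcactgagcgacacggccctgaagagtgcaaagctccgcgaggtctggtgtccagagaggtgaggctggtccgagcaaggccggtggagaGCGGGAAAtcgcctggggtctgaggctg
Orc1: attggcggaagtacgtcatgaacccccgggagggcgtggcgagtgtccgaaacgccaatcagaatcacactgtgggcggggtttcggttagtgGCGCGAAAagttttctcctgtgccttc
Pola1: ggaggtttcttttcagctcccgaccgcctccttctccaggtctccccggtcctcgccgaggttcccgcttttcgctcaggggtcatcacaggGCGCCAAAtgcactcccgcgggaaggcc
Rrm2: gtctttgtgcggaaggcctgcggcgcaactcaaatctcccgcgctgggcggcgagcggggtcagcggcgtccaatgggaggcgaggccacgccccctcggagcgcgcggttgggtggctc
Cdc45: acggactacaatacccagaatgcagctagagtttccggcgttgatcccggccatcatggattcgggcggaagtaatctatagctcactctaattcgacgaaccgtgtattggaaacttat
In Mcm6 a pair of words on opposite strands overlaps and another lies nearer the start. In the other promoters with a match that are shown, 1 word stands alone.

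The arrays differed in ways that bear on every comparison below. The titles of 3 arrays carry a sample number (Sca1+ replicate 2 and Sca1- replicates 2 and 3), and the labels of these 3 also name the stain SAPE and the software GCOS; the other 4 carry no number and name neither. They are called the numbered and the unnumbered set, and each fraction's array of the unnumbered set is replicate 1. The labels do not call either set a batch. For Actb the 3' control probe set over the 5' one, a ratio that rises with truncated RNA, was 6.83 and 13.5 on the unnumbered Sca1+ and Sca1- arrays, 1.87 to 2.37 on the numbered arrays, 1.01 on the unsorted and 1.03 on the feeder array. Summed signals of 14 fibroblast genes were 24189 and 14557 on the unnumbered sorted arrays and 51453 to 115699 on the numbered arrays, with 84972 on the unsorted and 95664 on the feeder array. Summed signals of 13 granulocyte genes were 139881 and 10130 in Sca1+ and 208567 to 592086 in Sca1-, without overlap, with 65308 on the unsorted and 5737 on the feeder array. Macrophage genes summed to 84103 to 146920 on the sorted arrays. Of 23 endothelial genes, 6 to 15 exceeded a signal of 100 on the sorted arrays, and Tek, Tie1, Erg and Sox17, which mark endothelium, were at the floor on all 5. The endothelial receptor gene Kdr read 141 to 432 on the sorted arrays, and Cdh5 and Pecam1, which encode junction proteins, read 237 and 206 on Sca1+ replicate 2 and lower on the other 4. In bulk RNA, fewer cells of a type and less RNA per cell cannot be told apart. The part of RNA quality and of these other cell types in the values below was not tested.

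The number of the 41 genes above a signal of 100 ran from 34 on the unsorted array to 40 on Sca1- replicate 2. The highest bacterial control probe set, a measure of background, read 170 on the unsorted array and on Sca1- replicate 1, where 11 and 8 of the 41 genes lay below it, and 50.8 to 88.2 on the other 5 arrays, where 1 to 5 did. Relative to each gene's mean over the 7 arrays, the median gene stood 0.35 and 0.32 above on Sca1- replicates 2 and 3, 0.11 above on Sca1+ replicate 1, 0.03 above on Sca1- replicate 1, 0.01 above on the feeder array, 0.29 below on Sca1+ replicate 2 and 0.42 below on the unsorted array (log2). The same median over all 8591 genes tested ran from -0.14 on Sca1- replicate 1 to 0.13 on the unsorted array. Sca1+ replicate 2 was the lowest of the 5 sorted arrays for 22 of 39 genes, against a background of 16.8% of all genes tested. Sca1- replicate 1 was the lowest for 15 of 39, against 34.9%.

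**Figure D1:**
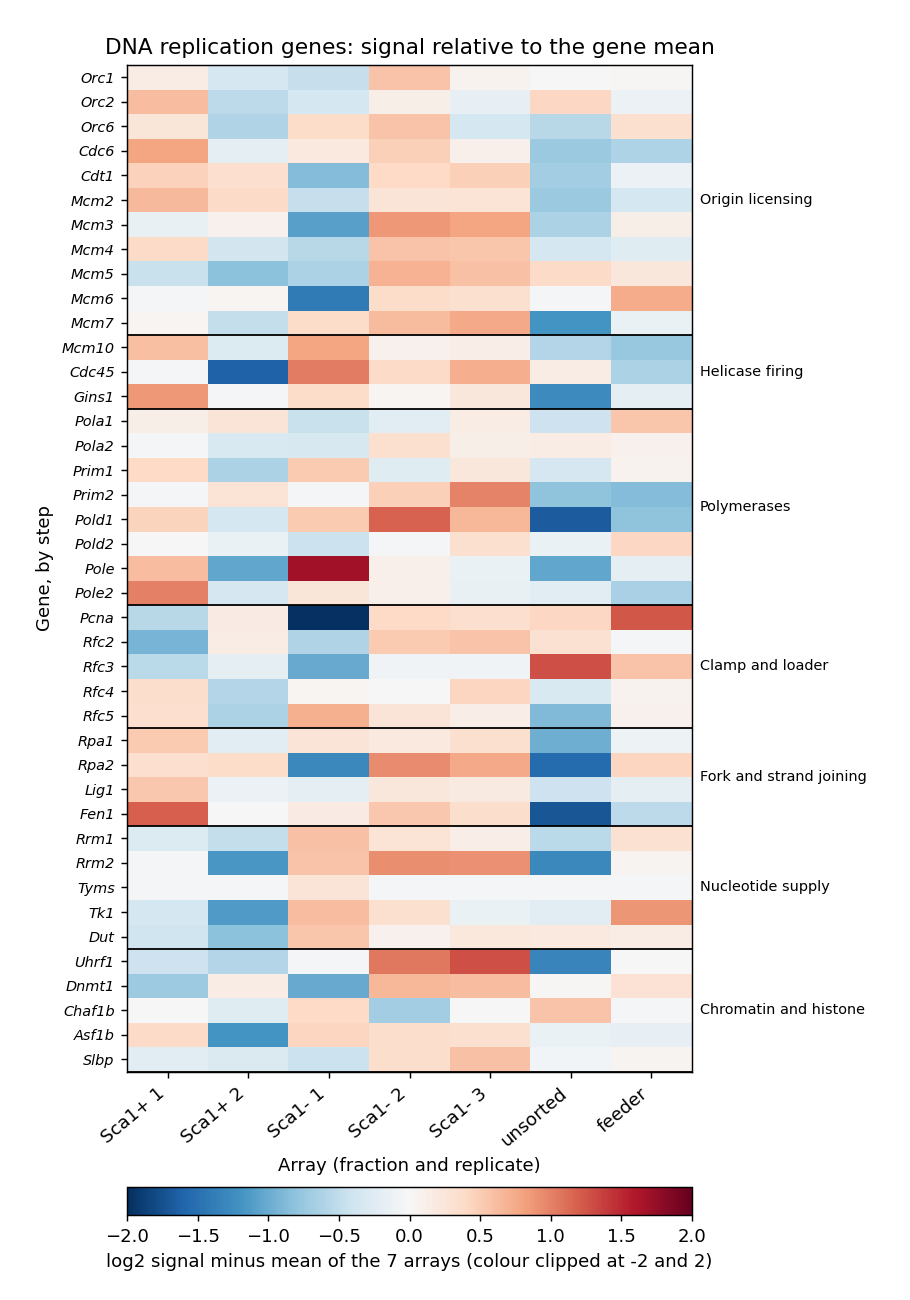
Log2 signal of each of the 41 genes (rows, grouped by step) on each of the 7 arrays (columns), as the difference from that gene's mean over the arrays; red is above and blue below the mean. Sca1- replicates 2 and 3 are red in most rows, the unsorted array and Sca1+ replicate 2 are mostly blue, and Sca1- replicate 1 is blue for Mcm3, Mcm6 and Pcna but red for the nucleotide supply genes.

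Whether the Sca1 fractions differ in replication transcripts was asked first. Of the 39 genes tested, 26 had a lower and 13 a higher mean in Sca1+, with a median difference of -0.23 against 0.07 over all genes. No gene passed: with limma and Benjamini-Hochberg adjustment 0 of 39 were called, and 0 of 8591 over all genes (0%). At an unadjusted p under 0.05, 3 of 39 were lower (2.29% of all genes were) and 0 were higher (1.11%). Both Sca1+ arrays lay below every Sca1- array for 8 genes, against a background of 8.45%, and above every one for 1 gene, Mcm2, against 12.1%. With the set of arrays as a block, 0 of 39 were called (0.989% of all genes were), the smallest adjusted p was 0.161, and at an unadjusted p under 0.05 there were 8 lower (7.82% of all genes) and 0 higher (7.67%). After median scaling Mcm2 overlapped, and both Sca1+ arrays lay below every Sca1- array for 6 of 40 genes, against 632 of 8922 over all genes. Leaving out Sca1+ replicate 2 turned the median to 0.05, and leaving out replicate 1 gave -0.45, so its direction rests on Sca1+ replicate 2.

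Nucleotide supply was the step in which every gene tested lay lower on both Sca1+ arrays than on all 3 Sca1- arrays. That was 4 of 4, against 8.45% of all genes, with a median difference of -0.95. Rrm2, the regulated subunit of ribonucleotide reductase, which makes deoxyribonucleotides, read 1729 and 788 in Sca1+, 2596, 3335 and 3320 in Sca1-, 722 in unsorted and 1830 in feeder cells. Rrm1, the large subunit of the same enzyme, read 933 and 811 in Sca1+, 1692, 1362 and 1235 in Sca1-, 781 in unsorted and 1396 in feeder cells. In both the fractions were apart, and for Rrm2 Sca1+ replicate 2 was the lowest sorted array by a wide margin. Tk1, the S phase thymidine kinase, read 234 and 136 in Sca1+, 455, 372 and 271 in Sca1-, 255 in unsorted and 549 in feeder cells. Dut, which removes dUTP so that it does not enter DNA, read 169 and 126 in Sca1+, 326, 236 and 257 in Sca1-, 255 in unsorted and 247 in feeder cells. Both were again lower on the Sca1+ arrays. The differences were -1.39 ± 0.45 (SE) for Rrm2 (unadjusted p = 0.0184 in limma), -0.89 ± 0.42 for Dut and -0.70 ± 0.37 for Rrm1, and Tk1 was 2.01-fold lower (SE of log2 0.47), each with an adjusted p of 1. With the set of arrays as a block they were -1.44 for Rrm2, -1.11 for Tk1, -0.96 for Dut and -0.76 for Rrm1, all with an unadjusted p under 0.05, and the smallest adjusted p was 0.191. The difference had the same sign in both sets, with a median of -0.90 in the unnumbered and -1.09 in the numbered set. All 3 probe sets of Rrm2 were lower on both Sca1+ arrays, whereas on the second probe set of Rrm1 the Sca1+ values lay inside the Sca1- range of 78.8 to 414. Tk1 overlapped after quantile normalization and after median scaling, which left 3 of 4 apart. With probe sets averaged per gene 3 of 4 were apart too, with a median difference of -0.72. The granulocyte transcripts given above were lower on the same arrays.

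**Figure D2:**
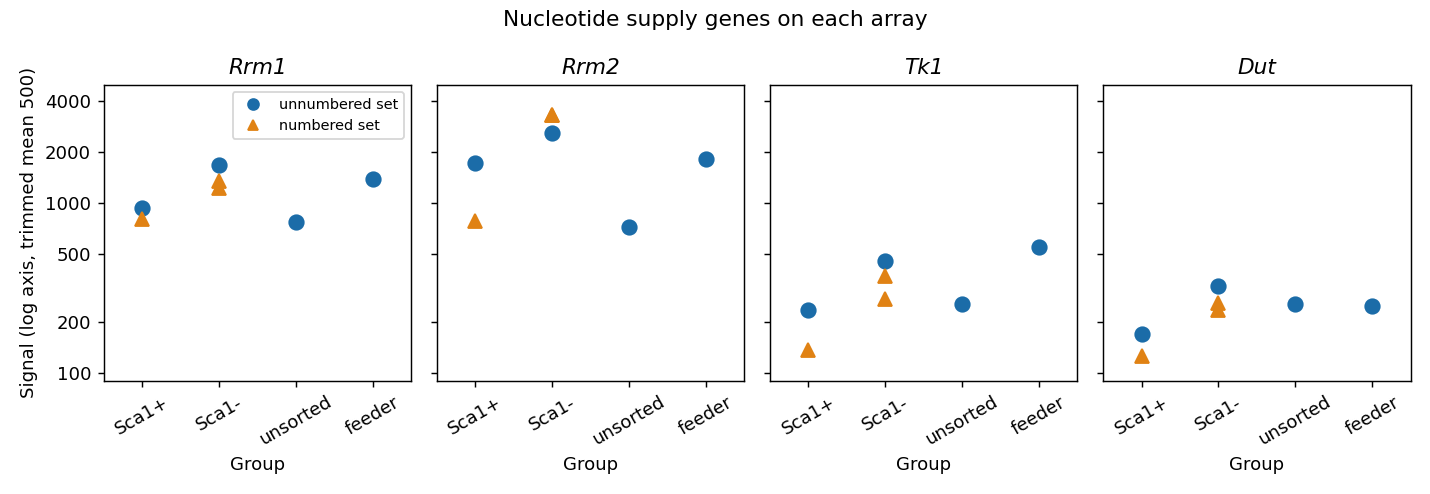
Signal (log axis, arrays scaled to a trimmed mean of 500) of the 4 nucleotide supply genes tested on each array, by group; circles are arrays of the unnumbered set and triangles arrays of the numbered set, 1 point an array. Both Sca1+ points lie below all 3 Sca1- points in each panel, and the feeder array lies above the unsorted array for Rrm1, Rrm2 and Tk1 but not for Dut.

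Origin licensing genes did not lie on 1 side. Of 10 tested, 5 were lower and 5 higher in Sca1+, with a median of -0.07. Mcm7, a helicase subunit, read 2282 and 1594 in Sca1+, 2841, 3438 and 3761 in Sca1-, 964 in unsorted and 2026 in feeder cells, a difference of -0.80 ± 0.38 (SE). Mcm5, another subunit, read 332 and 256 in Sca1+, 291, 726 and 675 in Sca1-, 590 in unsorted and 527 in feeder cells (-0.84 ± 0.52). Mcm2, also of the ring, read 1504 and 1251 in Sca1+, 698, 1149 and 1161 in Sca1-, 576 in unsorted and 758 in feeder cells (0.49 ± 0.41). On the kept probe sets Mcm7 was apart in 1 direction and Mcm2 in the other, while Mcm5 overlapped through Sca1- replicate 1. The second probe set of Mcm2 overlapped, with a difference of -0.06. Other probe sets of Mcm7 overlapped as well, with differences of -0.76 and -0.40, while a further one was apart, with -0.46. Mcm3 read 711 and 839 in Sca1+, 373, 1452 and 1375 in Sca1-, 512 in unsorted and 860 in feeder cells (-0.23 ± 0.65), and its low value was again on that array. The 6 subunits of this ring-shaped helicase had differences from -0.84 to 0.49, none of them called. Cdt1, the loading factor, read 3474 and 3174 in Sca1+, 1371, 3319 and 3505 in Sca1-, 1548 in unsorted and 2330 in feeder cells, and among the sorted arrays Sca1- replicate 1 alone stood apart. The second probe set of Cdt1 was higher on both Sca1+ arrays, by 0.90. The origin recognition genes Orc2 and Orc6 and the loading factor Cdc6 had differences of 0.18, -0.37 and 0.04.

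Of the genes that activate the helicase, Cdc45 lay lower on both Sca1+ arrays. It read 223 and 74.2 in Sca1+, 460, 296 and 374 in Sca1-, 253 in unsorted and 146 in feeder cells, a difference of -1.52 ± 0.57 (SE), with an unadjusted p of 0.0317 in limma and -1.68 ± 0.38 with the set as a block (adjusted p = 0.161). The fractions were apart, but 74.2 lies below the highest bacterial control probe set of that array, at 82, so the size is uncertain; it was -1.13 with a doubled floor and -0.73 without that array. Gins1, a subunit of the GINS complex, read 401 and 217 in Sca1+, 284, 226 and 257 in Sca1-, 90.8 in unsorted and 195 in feeder cells (0.21 ± 0.45). Mcm10, which joins helicase and polymerase alpha, read 633 and 347 in Sca1+, 722, 447 and 458 in Sca1-, 280 in unsorted and 249 in feeder cells (-0.17 ± 0.47). Both overlapped, and both were lower on the numbered than on the unnumbered array of their own fraction.

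Polymerase genes had a median difference of -0.25, with 6 of 8 lower in Sca1+. Pold1, the catalytic subunit of polymerase delta, read 536 and 309 in Sca1+, 565, 896 and 625 in Sca1-, 125 in unsorted and 227 in feeder cells (-0.74 ± 0.45 SE). The fractions were just apart, and its second probe set overlapped. Pole, the catalytic subunit of the leading strand polymerase epsilon, read 201 and 29.4 in Sca1+, 422, 141 and 120 in Sca1-, 35 in unsorted and 114 in feeder cells (-0.76 ± 0.75). Pola1, of the priming polymerase alpha, read 164 and 180 in Sca1+, 111, 130 and 168 in Sca1-, 113 in unsorted and 223 in feeder cells (0.35 ± 0.43). Both overlapped, and Pole was under the floor on 2 arrays. The other 5 polymerase and primase genes, Pola2, Prim1, Prim2, Pold2 and Pole2, had differences from -0.34 to 0.26.

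Clamp, clamp loader, fork and strand-joining genes overlapped between the fractions, 9 of 9. Pcna, the sliding clamp, read 3127 and 5186 in Sca1+, 1156, 6075 and 5803 in Sca1-, 6159 in unsorted and 10866 in feeder cells (0.23 ± 0.77 SE), with its low value on Sca1- replicate 1. Rfc5, a clamp loader subunit, read 514 and 262 in Sca1+, 669, 485 and 447 in Sca1-, 222 in unsorted and 431 in feeder cells (-0.52 ± 0.47). Rfc2, of the same complex, read 387 and 819 in Sca1+, 483, 1058 and 1096 in Sca1-, 905 in unsorted and 727 in feeder cells (-0.55 ± 0.55). Rfc2 was higher on all 3 numbered arrays than on both unnumbered sorted arrays. Rfc4 read 155 and 80.2 in Sca1+, 124, 121 and 163 in Sca1-, 98.4 in unsorted and 127 in feeder cells (-0.27 ± 0.48). Fen1, the flap nuclease that trims Okazaki fragments, read 2748 and 1197 in Sca1+, 1339, 1734 and 1530 in Sca1-, 366 in unsorted and 831 in feeder cells (0.25 ± 0.46). Lig1, the ligase that joins them, read 1204 and 766 in Sca1+, 725, 970 and 947 in Sca1-, 623 in unsorted and 723 in feeder cells (0.14 ± 0.40). Neither separated the fractions, and both were highest on Sca1+ replicate 1. Rpa2, which coats single-stranded DNA, read 234 and 240 in Sca1+, 76.4, 358 and 314 in Sca1-, 41.2 in unsorted and 250 in feeder cells (0.21 ± 0.72). Its lowest sorted value was on Sca1- replicate 1, and Rpa1, its partner, had a difference of -0.10.

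All 5 chromatin genes tested had a lower mean in Sca1+, with a median of -0.42. Uhrf1, which recruits the maintenance methyltransferase to newly copied DNA, read 297 and 262 in Sca1+, 384, 820 and 963 in Sca1-, 158 in unsorted and 397 in feeder cells. The fractions were apart on the kept probe set (the second read below the bacterial control on both Sca1+ arrays and on Sca1- replicate 1), and the difference was -1.27 ± 0.51 (SE), with an unadjusted p of 0.0425 in limma and an adjusted p of 1. Asf1b, a histone chaperone, read 848 and 286 in Sca1+, 883, 836 and 813 in Sca1-, 597 in unsorted and 585 in feeder cells (-0.78 ± 0.53). Slbp, which binds histone mRNA, read 813 and 767 in Sca1+, 698, 1201 and 1408 in Sca1-, 903 in unsorted and 978 in feeder cells (-0.42 ± 0.44). Both overlapped, Asf1b through Sca1+ replicate 1 and Slbp through Sca1- replicate 1. Dnmt1, the methyltransferase itself, read 885 and 1626 in Sca1+, 726, 2317 and 2238 in Sca1-, 1494 in unsorted and 1797 in feeder cells (-0.37 ± 0.62), and Chaf1b, a subunit of the chromatin assembly factor, had a difference of -0.03.

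The 2 sets of arrays gave different pictures of the fractions. In the numbered set 36 of 39 genes were lower in Sca1+, with a median of -0.51, against 3722 of 8591 genes and a median of 0.07 over all genes. In the unnumbered set 23 of 39 were higher in Sca1+, with a median of 0.27 against 0.02. For 21 of 39 genes Sca1+ was higher in the unnumbered set and below both Sca1- arrays in the numbered set, against 13.1% of all genes, and for 15 it was lower in both, against 18.9%. By step, the median in the unnumbered and the numbered set was 0.93 and -0.61 for licensing, 0.88 and -0.45 for fork and strand joining, 0.32 and -0.39 for the clamp and its loader, and 0.16 and -0.48 for polymerases. It was -0.06 and -0.76 for chromatin, -0.19 and -0.38 for helicase activation and, as given, below 0 in both for nucleotide supply. Single genes with opposite signs included Mcm6 (1.40 and -0.30), Pcna (1.44 and -0.20), Rpa2 (1.62 and -0.48) and Mcm4 (0.94 and -0.92), which were named after their values were seen. A test of the difference between the sets' differences, added after seeing the data, had 1 residual degree of freedom. It called 0 of 39 genes and 0 of 8591 (0%) in limma with adjustment, the smallest adjusted p among the 39 being 0.0989, while 18 of 39 and 2681 of 8591 had an unadjusted p under 0.05. The unnumbered set has 1 array of each fraction, and its Sca1- array had the highest Actb ratio.

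**Figure D3:**
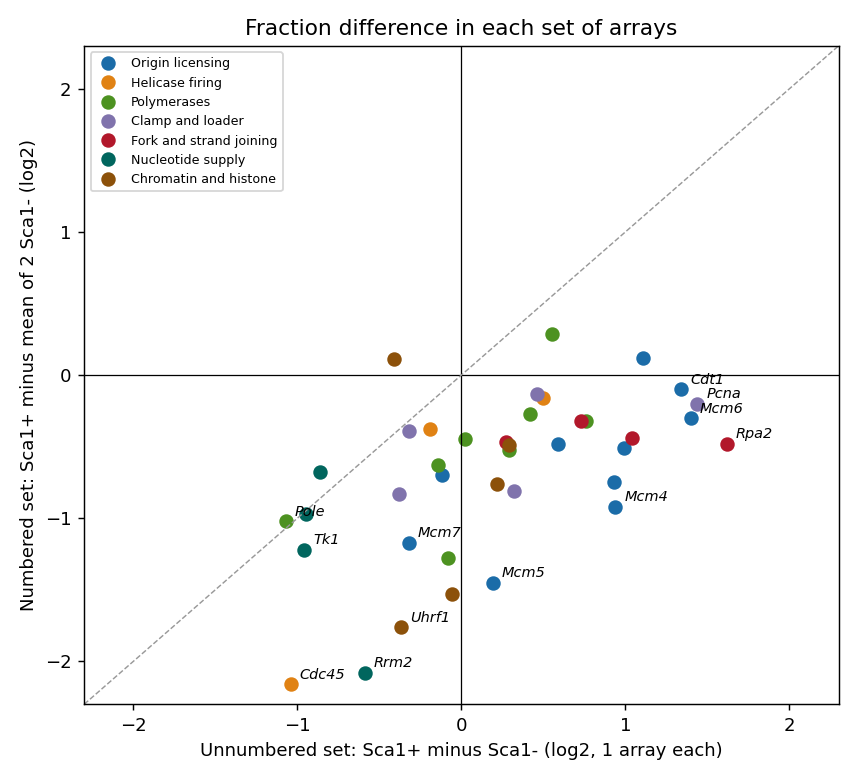
Difference of Sca1+ from Sca1- (log2) in the unnumbered set (horizontal, 1 array each) and in the numbered set (vertical, 1 Sca1+ array against the mean of 2 Sca1- arrays) for the 39 genes tested, coloured by step; the dashed line marks equal values. Nearly all points lie below the horizontal zero line, with 36 of 39 below it, whereas 23 of 39 lie to the right of the vertical zero line, among them most licensing genes.

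With the fraction kept in the model, the numbered set was compared with the unnumbered set. In limma with adjustment, 4 of 39 genes were called, against 19.2% of all genes: 3 of 39 were higher in the numbered set, where 11.8% of all genes were, and 1 was lower, where 7.46% were. Over all genes 1012 were higher and 641 lower, a split that quantile normalization changed to 892 and 896, and median scaling to 526 and 728. With median scaling Pole alone of the 39 was called. Pcna rose by 1.66 ± 0.38 (SE, adjusted p = 0.0317), Dnmt1 by 1.32 ± 0.26 (adjusted p = 0.0222) and Rfc2 by 1.12 ± 0.23 (adjusted p = 0.0246), while Pole fell by 1.68 ± 0.35 (adjusted p = 0.0248). In Pcna the numbered arrays were above both unnumbered sorted arrays, 5186 to 6075 against 1156 and 3127. In Pole they were below both, 29.4 to 141 against 201 and 422. Mcm3 (1.20 ± 0.41, adjusted p = 0.0849), Mcm10 (-0.76 ± 0.26, adjusted p = 0.0878) and Rpa2 (1.24 ± 0.53, adjusted p = 0.147) did not pass. The number called rested on single arrays: leaving out either Sca1+ array gave 13, when the term came from Sca1- arrays alone, leaving out Sca1- replicate 1 or 2 gave 2, and leaving out Sca1- replicate 3 gave 1. Without Sca1- replicate 1 Pcna had 0.73 (adjusted p = 0.0582). Pole was not called without Sca1- replicate 1 or 3 (-1.65 and -1.62), nor was Rfc2 without any 1 of the Sca1- arrays (1.08 to 1.13), so their sizes stayed close to the full value. Dnmt1 was not called without any 1 of them either, with 0.88 without replicate 1 and 1.25 and 1.28 without the others. None of the 39 was called without the filter on low signals. The Actb ratio and the fibroblast transcripts differed between the same sets.

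Probe sets of 1 gene disagreed in this comparison. For Mcm6 the kept probe set had a difference of 1.04 and the other -0.71, and for Mcm7 the 4 probe sets ran from -0.58 to 0.77. The second probe set of Rrm1 had 1.87 where the kept had -0.31, and that of Fen1 1.71 where the kept had -0.35, both named after their values were seen. The second probe set of Dnmt1 had 0.36, and with the mean of its probe sets Dnmt1 had 0.84 and was not called (adjusted p = 0.126). For Mcm3 between the fractions, the 5 probe sets ran from -1.46 to 0.80. For Mcm6, Mcm7, Rrm1 and Fen1 the sign between the sets therefore depends on the probe set read. So does that of Mcm3 between the fractions. Between the sets, tested probe sets also differed in sign for Orc2 (-0.29 and 0.97), Pold1 (-0.11 and 0.72), Rpa1 (-0.32 and 0.49) and Mcm4 (0.31 and -0.32). The same held for Mcm3, Rfc3, Rfc4 and Rrm2. Those of Cdt1, Mcm2, Prim1, Prim2, Uhrf1 and Dnmt1 kept 1 sign. Between the fractions those of Prim2 (-0.34 and 0.73) differed in sign too, among others. The names of 3 kept probe sets end in _s_at (Mcm2, Mcm3 and Mcm7) and of 3 in _x_at (Pold1, Fen1 and Rrm2), which by the maker's convention marks probes that can also read other transcripts.

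**Figure D4:**
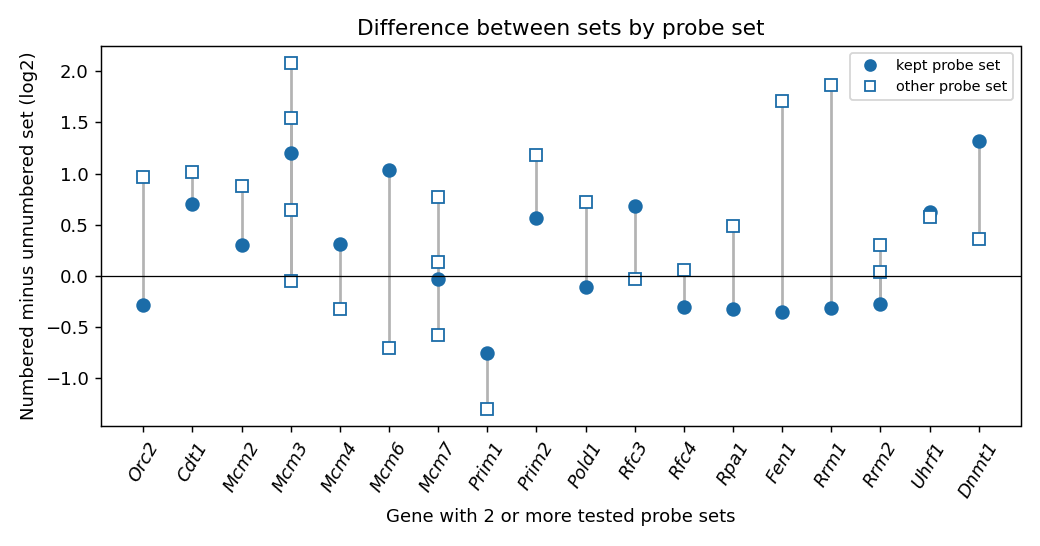
Difference of the numbered from the unnumbered set (log2, fraction in the model) for each probe set of the genes with at least 2 tested probe sets; filled circles are the kept probe sets, open squares the others, and grey lines join those of 1 gene. The points of Mcm6 (1.04 and -0.71), Fen1 and Rrm1, among other genes, lie on both sides of zero.

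The unsorted progenitors, on 1 array, stood lower than the mean of the 2 fractions for 27 of 39 genes, with a median of -0.44 against 0.17 over all genes, and no test was made on this 1 array. Differences of at least 2-fold downward were seen for 12 of 39 (8.36% of all genes) and upward for 1, Rfc3 (16.4%). These counts use the kept probe sets. Among the 12, Cdc6, Gins1, Prim2, Pold1, Pole, Rpa2 and Uhrf1 lay below the bacterial control of this array, at 170. The rest, Mcm2, Mcm7, Rrm2, Rpa1 and Fen1, each had another probe set whose unsorted value lay within the sorted range. The other probe set of Rfc3 read 38.6, under the floor, against 6.8 to 152 on the sorted arrays. Fork and strand-joining genes had a median of -1.49 on the kept probe sets, -0.87 over every probe set and -0.55 with probe sets averaged per gene, where licensing had -0.58. On the kept probe sets the unsorted array was the lowest of all 7 for each of the 4 (12.3% of all genes). Fen1 read 366 there and at least 831 elsewhere, Rpa2 41.2 against at least 76.4, Rpa1 2035 against at least 3479 and Lig1 623 against at least 723. The other probe sets of Fen1, Rpa1 and Rpa2 were not lowest on this array, with 304, 632 and 310. On their kept probe sets Pold1, at 125, and Uhrf1, at 158, were also lowest on the unsorted array, both below its bacterial control. Their second probe sets were not lowest there, with 380 and 96.6. Pcna read 6159, above all 5 sorted arrays. The median of the 39 was -0.83 after quantile normalization and -1.16 after median scaling. Those scalings moved the median of all genes to -0.10 and -0.51, so the genes stayed below it.

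On the feeder array 27 of 39 genes were higher than on the unsorted array, with a median of 0.40 against -0.03 over all genes. An upward difference of at least 2-fold was seen for 7 of 39 (4.04% of all genes) and a downward difference of that size for 0 (9.6%). The 7 were Rpa2 (1.97), Rrm2 (1.34), Uhrf1 (1.33), Fen1 (1.18), Tk1 (1.11), Gins1 (1.10) and Mcm7 (1.07), genes of 5 of the 7 steps. Uhrf1, Gins1 and Rpa2 lay below the bacterial control of 170 on the unsorted array, so the sizes given for them are uncertain. Rpa2 was at the floor on the unsorted array, so its fold there is at least 3.91, and its second probe set read 310 and 306. Pcna read 10866 on the feeder array, its highest value anywhere, against 6159 on the unsorted array. Against the mean of the fractions the feeder had a median of -0.03 (0.04 over all genes), with 2 genes, Pcna (1.55) and Tk1 (1.12), past 2-fold upward (11.8% of all genes) and 3 past it downward (8.22%). It was the highest of the 7 arrays for 5 of 39 (15.7%). The feeder median relative to the unsorted array was 0.58 after quantile normalization and 0.74 after median scaling, where all genes had 0.00 and 0.28.

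**Figure D5:**
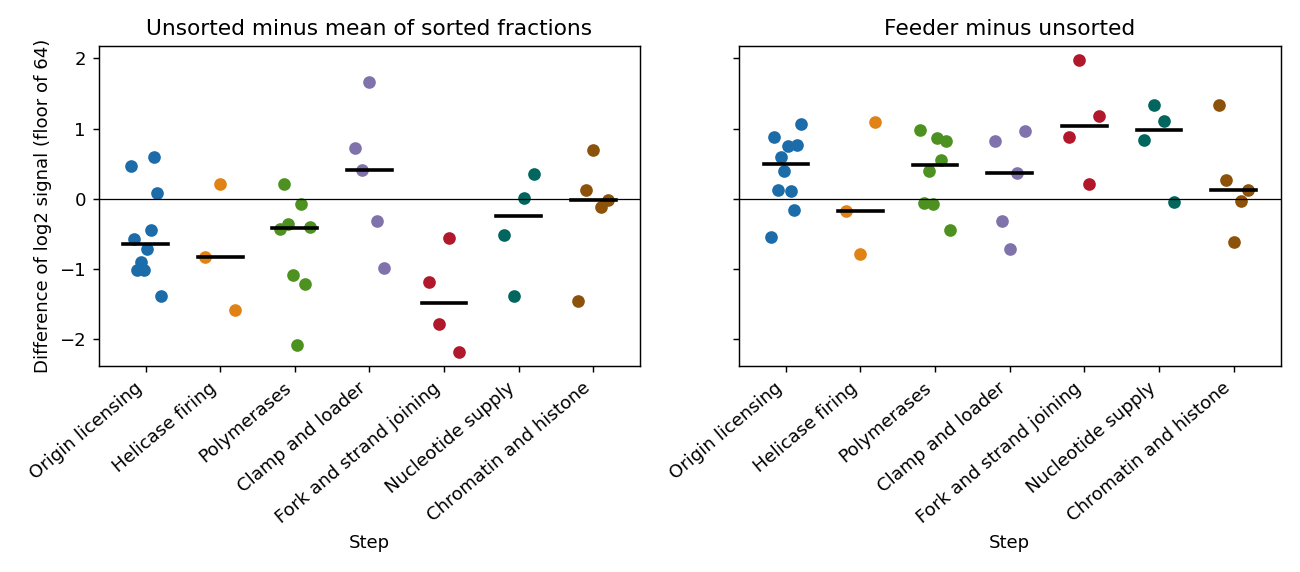
Difference of log2 signal for the 39 genes tested, by step, between the unsorted array and the mean of the sorted fractions (left) and between the feeder and the unsorted array (right); points are genes and black bars the median of a step. On the kept probe sets plotted, the fork and strand-joining genes have a median of -1.49 on the left and 1.03 on the right; with probe sets averaged per gene these were -0.55 and 0.98.

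Other genes of the pathway were read from 2 further lists. Of 28 further replication genes tested (other origin, polymerase, fork, nucleotide and chromatin factors), 17 had a lower mean in Sca1+, the median was -0.11 and 0 were called; in the comparison of sets 1 was higher, Top1, a topoisomerase that relaxes DNA ahead of the fork (1.33 ± 0.25 SE, adjusted p = 0.0176), and 1 lower, the large clamp loader subunit Rfc1 (-1.25 ± 0.26, adjusted p = 0.0242). Of 13 genes that control entry into S phase, 9 had a lower mean in Sca1+, with a median of -0.44, 0 were called, and both Sca1+ arrays lay below every Sca1- array for 6 (8.45% of all genes). The smallest p belonged to Ccna2, which encodes the S and G2 phase cyclin A (531 and 553 on the Sca1+ against 951, 1202 and 1368 on the Sca1- arrays, -1.10 ± 0.38), and to Tfdp1, the partner of E2F factors (734 and 1007 against 1565, 1472 and 1377, -0.77 ± 0.37). Mitotic genes, tested for 26, all had a lower mean in Sca1+ (median -1.13, 0 called), 19 of them without overlap, and their medians were -0.80 in the unnumbered and -1.36 in the numbered set. Among the replication steps the median was below 0 in both sets for nucleotide supply, helicase activation and chromatin. After median scaling the unnumbered set had -0.67, 0.05 and 0.18 for these. That scaling moved the median of all genes in the unnumbered set from 0.02 to 0.23, so each of these steps stayed below it. Genes with an E2F word had a median of 0.01 between the fractions over 13 tested, and those without had -0.27 over 21. In the comparison of sets the medians were 0.56 and -0.32. Tested genes with no promoter found (Mcm4, Gins1, Prim2, Pole and Rfc2) are in neither group. All nucleotide supply genes tested fell in the group without a word, and many genes with a word belong to licensing. The word and the step were not separated.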

How the data were processed

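RNA of 7 fetal liver samples had been measured on short-oligonucleotide arrays with 22690 probe sets. The deposited values are signal intensity on a linear scale, with a trimmed mean near 250 per array as the authors left them. The software GCOS is named for 3 arrays, per the submitters' processing notes, and for the others none is given in these sources. The 2% trimmed mean of every array was brought to 500, a floor of 64 was applied, and signals were put on the log2 scale. Of the probe sets, 20380 were paired with 1 gene, and per gene the brightest of them, by average log2 across the 6 arrays that share a table, was kept. The tests covered the 8591 genes with a signal over 100 on 2 or more sorted arrays. Linear models (R 4.3.3; limma 3.58.1, with an intensity trend in eBayes) were fitted to the 6 arrays with 1 mean per group, and again with a term for the set of arrays, with Benjamini-Hochberg adjustment over all genes at 0.05; residual degrees of freedom were 3 and 2. The fits were tested on simulated data. The number of arrays limits the precision. No p-value was computed for the unsorted or feeder array.

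Genes given on all arrays were, per step, the 3 with the smallest p between fractions and the 1 with the smallest p between sets. Genes whose probe sets differed in sign by over 0.5 each way were named, not always with every array. The same holds for 2 genes per fit from the further lists. Pcna, Rrm1, Cdt1 and other genes were added after their values were seen. Alternatives covered scaling, floor, filter, probe set rule, trend, blocks and single arrays left out. The members and lists were chosen with earlier results of these data known. Figures were drawn with matplotlib 3.10.9.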

Additional observations from a re-analysis of the deposited data

How the results depend on the processing

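Between the fractions, 0 genes were called over the array and 0 of the 39 under each alternative run (other scalings, floors, filters, probe set rules, samples and blocks), except that over all genes 1 was called without the filter, 85 with the set of arrays as a block and 80 with the replicate block. The titles give only the numbers 2 and 3, and replicate 1 stands here for an array without a number. Only replicates 1 and 2 occur in both fractions, and they coincide with the sets. Deviations from the group means correlated across genes at 0.57 and 0.48 for same-numbered arrays and at 0.52 for Sca1+ replicate 2 with Sca1- replicate 3, and at -0.57 to -0.48 across the sets, where centring a pair of Sca1+ arrays fixes the opposite sign. Pairing by number and the set of arrays cannot be told apart here. With the replicate block the median of the 39 was -0.11. Leaving out single arrays gave medians from -0.45 to 0.05, and without both unnumbered sorted arrays, chosen after seeing the data, it was -0.51.

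Between the sets, 1653 genes and 4 of the 39 were called. The count over all genes was 542 with a doubled floor, 31 without the filter and 2666 for every probe set, and 642 to 2939 leaving out single arrays. The count of the 39 was 1 with median scaling, 1 with a doubled floor, 0 without the filter, 7 of 63 for every probe set and 1 to 13 leaving out single arrays. The median was -0.11, 0.19 for every probe set and -0.52 to 0.36 leaving out single arrays. The unsorted median of -0.44 moved to -0.83 with quantile normalization and -1.16 with median scaling, the feeder against unsorted from 0.40 to 0.74 with median scaling and 0.75 with signal above 300, and the feeder against the fractions from -0.03 to -0.36 with median scaling. The cause of these changes was not tested. Signals near 64 limit, among others, Orc1, Tyms, Rpa2, Pole, Cdc45, Cdc6 and Rfc3.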
